A study of Mus musculus with 13 samples.

Results

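Small nucleolar RNAs were read on the Mouse Gene 1.0 ST array, a whole-transcript array that carries probe sets for non-coding as well as coding RNAs. The members were defined by name, as probe sets whose only annotated gene symbol starts with Snord or Snora. This family was taken up with earlier results of these data known. There were 56 such probe sets for 51 genes among 35556 probe sets in all, of which 21789 have 1 symbol. Snord symbols accounted for 33 probe sets of 31 genes, and Snora symbols for 23 probe sets of 20 genes.

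The cells were B3, a mouse pre-B cell line. Ikaros-ERt2 cells carry a retroviral construct in which HA-tagged Ikaros, a DNA-binding factor of the lymphoid lineage, is fused to the hormone-binding domain of the estrogen receptor and linked by an IRES to GFP, so that 4-hydroxytamoxifen activates the fusion protein. They were collected after 2 h of 4-hydroxytamoxifen (3 arrays) and after 6 h (3 arrays). Vector-ERt2 cells carry ERt2 and GFP from the same kind of virus without Ikaros, and were collected after 6 h of 4-hydroxytamoxifen (3 arrays). All 3 groups thus share the parent line, the virus type, ERt2 and the drug. The 2 h group had no vector group of its own exposure time. In both comparisons that use it, an effect of Ikaros and one of time in the drug thus cannot be told apart. No array of Ikaros-ERt2 cells without the drug was used. A difference between the lines that preceded exposure and a response to it therefore cannot be told apart. The titles call the samples biological replicates without naming separate cultures, so the spread behind each p-value may be technical. Both comparisons with vector-ERt2 cells use the same 3 vector arrays.

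As background, small nucleolar RNAs guide the chemical modification of ribosomal RNA in the nucleolus. Box C/D RNAs (Snord) pair with their target and bring the methyltransferase fibrillarin, which methylates the ribose, and box H/ACA RNAs (Snora) bring the pseudouridine synthase dyskerin. A few, such as U17 (Snora73a and Snora73b), U14, U22 and U8 (Snord118), are needed for cutting the ribosomal precursor RNA. Most vertebrate small nucleolar RNAs have no promoter of their own. They lie in introns of host genes, which often encode ribosomal proteins, translation factors or nucleolar proteins, and are trimmed out of the spliced intron by exonucleases while bound by their particle proteins. Dividing lymphoid precursors make much ribosomal RNA.

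All values below are the deposited log2 values, where 1 unit is a factor of 2 in signal, and a log2 change is the difference of 2 group means. A gene is called where its adjusted p is under 0.05, from limma fitted to all 9 arrays with Benjamini-Hochberg adjustment over the 11963 genes tested. Ikzf1, which encodes Ikaros, checked the labels. It measured 13.28 ± 0.10 in Ikaros-ERt2 cells at 2 h and 13.26 ± 0.04 at 6 h, against 9.27 ± 0.12 in vector-ERt2 cells (SD, n = 3 each), although 1 label field of vector-ERt2 replicate 1 names the Ikaros construct. Arrays correlated at 0.989 to 0.994 within groups and 0.989 to 0.993 between groups (Pearson r over probe sets). Means of 8 pre-B markers ran from 4.23, for Rag1, to 12.75, and those of 12 T-cell, myeloid, natural killer and plasma cell markers from 3.78 to 5.76. Of 7 pre-B markers tested, Vpreb1, Igll1 and Blnk fell at 6 h against vector-ERt2 cells, with log2 changes of -1.17, -1.07 and -0.94. The others had 0.32 (Ebf1), 0.29 (Cd79b), 0.04 (Pax5) and -0.17 (Cd79a) and were not called. At 2 h Vpreb1 alone among them was called (-0.52, adjusted p = 0.0389). At 6 h over 2 h Vpreb1 and Igll1 fell while Cd79b and Ebf1 rose (0.44 and 0.57). The part of these markers in the results was not tested.

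Small nucleolar RNA probe sets lay across most of the range of the array. Their means over the 9 arrays reached from the percentile 6.34 to the percentile 91.2 of single-symbol probe sets, with a median at 63.7. A level depends on the probes as well as on the RNA, so levels of different members were not ranked against each other as amounts of RNA. Of the 51 genes, 44 passed the filter on low values (25 Snord and 19 Snora). The other 7, Snora2b, Snord118, Snord37, Snord38a, Snord58b, Snord61 and Snord85, lay below the lowest mean that was tested, 5.10, and have values without a test.

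After 6 h of 4-hydroxytamoxifen, most small nucleolar RNAs of both classes had a lower signal in Ikaros-ERt2 cells, set against vector-ERt2 cells. Of 44 member genes tested, 18 fell and 0 rose, where 3.2% of all genes tested fell (383 of 11963), 2.58% rose and 5.78% were called in either direction. The fallers were 12 of 19 Snora and 6 of 25 Snord genes. The median log2 change was -0.50 over Snora and -0.47 over Snord probe sets, against -0.02 over all probe sets of the array. The mean was below 0 for 54 of 56 member probe sets, as it was for 53.6% of single-symbol probe sets. In these bulk samples, fewer expressing cells and less RNA per cell cannot be told apart, nor can mature small nucleolar RNA and unspliced host RNA.

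**Figure D1:**
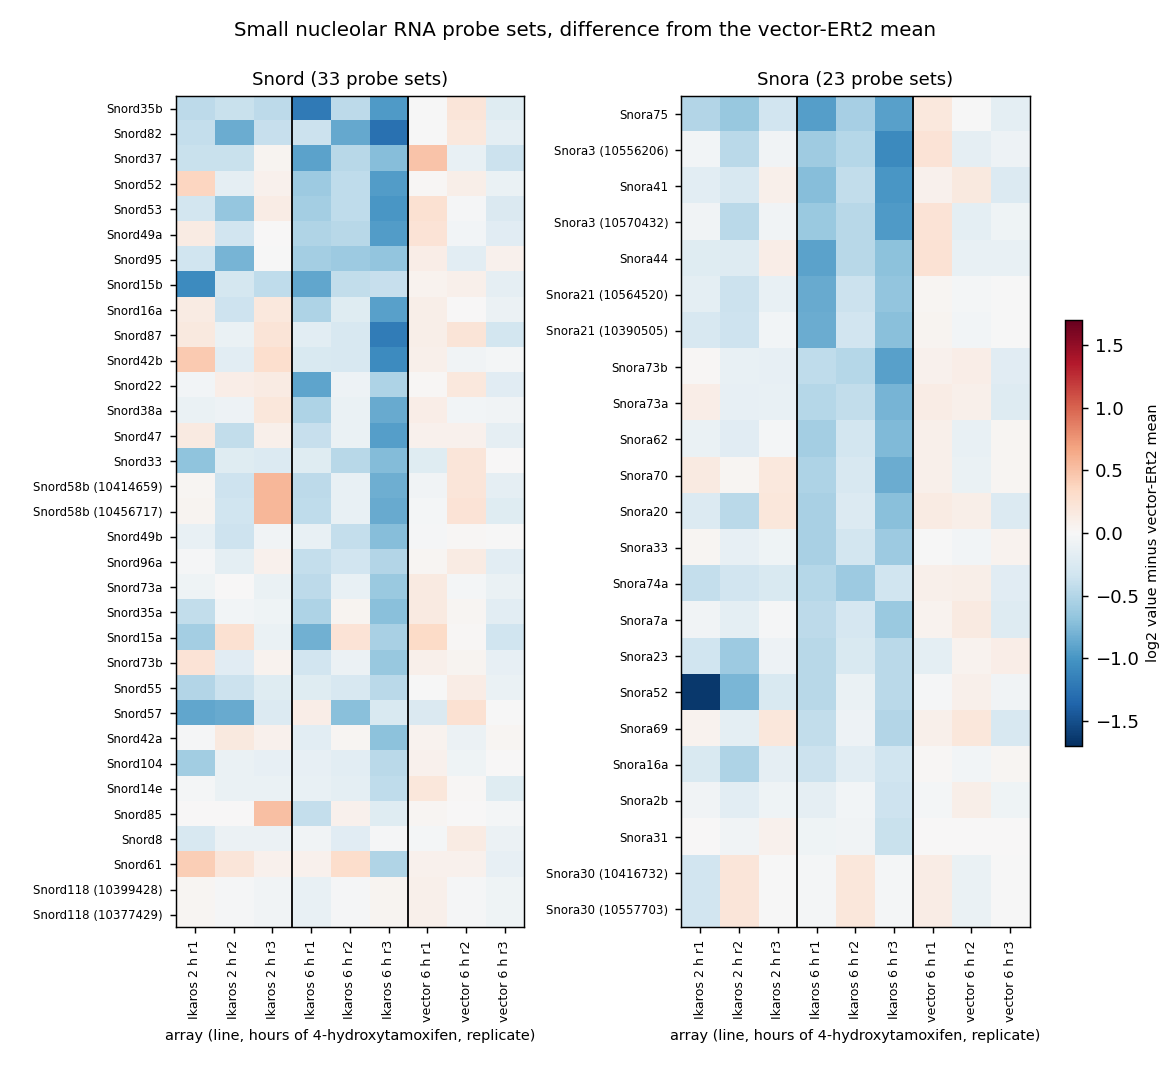
Difference of each member's log2 value from the mean of the 3 vector-ERt2 arrays (colour), for 33 Snord (left) and 23 Snora (right) probe sets in rows and the 9 arrays in columns, r marking the replicate. Rows are ordered by the change at 6 h, and numbers in brackets tell probe sets of 1 gene apart. The blue columns of Ikaros-ERt2 cells at 6 h show that 54 of 56 probe sets had a mean below that of vector-ERt2 cells.

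Among box H/ACA RNAs, Snora75 fell most. This RNA, also known as U23, lies in an intron of Ncl, the gene of the nucleolar protein nucleolin. It measured 7.10, 7.48 and 7.12 in Ikaros-ERt2 cells at 6 h, against 8.22, 8.04 and 7.87 in vector-ERt2 cells. The groups do not overlap, and the 1.75-fold lower level (log2 change -0.81 ± 0.13, SE of the fit) had an adjusted p of 0.00365 in limma. Snora33, from the ribosomal protein gene Rps12, measured 6.64, 6.88 and 6.57 in Ikaros-ERt2 cells at 6 h and at 7.18, 7.14 and 7.25 in vector-ERt2 cells. Its 3 vector values lie within 0.11 of each other, and it fell 1.41-fold (log2 change -0.49 ± 0.09, adjusted p = 0.00787). Snora75 and Snora33 were called at 6 h in each of 18 alternative fits, with adjusted p from 0.00201 to 0.025 and from 0.00294 to 0.0424.

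The next largest falls among Snora genes were those of Snora3, Snora41, Snora44 and Snora21. Snora3, in the ribosomal protein gene Rpl27a, measured 7.81, 7.94 and 7.34 in Ikaros-ERt2 cells at 6 h, against 8.65, 8.27 and 8.32 in vector-ERt2 cells (log2 change -0.72, adjusted p = 0.0283). A second probe set of Snora3 differed from it by at most 0.0957 on any array and had a log2 change of -0.69. Snora41, in the gene of the translation elongation factor Eef1b2, measured 4.83, 5.14 and 4.58 in Ikaros-ERt2 cells at 6 h and at 5.63, 5.73 and 5.32 in vector-ERt2 cells (log2 change -0.71, adjusted p = 0.0189). In each of these the lowest vector array was above the highest 6 h array. Snora44, which lies in the non-coding host gene Snhg12, measured 5.45, 5.90 and 5.67 in Ikaros-ERt2 cells at 6 h against 6.62, 6.24 and 6.24 in vector-ERt2 cells (log2 change -0.69, adjusted p = 0.015). Snora21, in the ribosomal protein gene Rpl23, measured 5.02, 5.54 and 5.16 in Ikaros-ERt2 cells at 6 h against 5.91, 5.83 and 5.87 in vector-ERt2 cells (log2 change -0.63, adjusted p = 0.0139), and its second probe set also had -0.63. Again the groups were apart, with 6 h replicate 2 the nearest to the vector arrays for Snora21.

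The pair of U17 RNAs fell too. They lie in the non-coding gene Snhg3, and because their sequences are close, their probe sets may read both RNAs. Snora73b measured 8.65, 8.61 and 8.16 in Ikaros-ERt2 cells at 6 h, against 9.16, 9.19 and 8.90 in vector-ERt2 cells (log2 change -0.61, adjusted p = 0.0179). Snora73a measured 8.21, 8.27 and 7.90 in Ikaros-ERt2 cells at 6 h, against 8.81, 8.78 and 8.48 in vector-ERt2 cells (log2 change -0.57, adjusted p = 0.0204). Both have 6 h replicate 3 as their lowest array. The other Snora genes that fell were Snora62 (-0.55), Snora70 (-0.54), Snora74a (-0.48) and Snora7a (-0.45), with adjusted p from 0.0138 to 0.0361. The 7 Snora genes tested but not called had log2 changes from -0.50, for Snora20, to 0.04, for Snora30.

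Among box C/D RNAs, the 6 that fell were Snord35b, Snord82, Snord52, Snord49a, Snord95 and Snord96a. Snord35b measured 5.49, 6.26 and 5.74 in Ikaros-ERt2 cells at 6 h against 6.70, 6.91 and 6.49 in vector-ERt2 cells. It had the largest fall of any member tested, 1.83-fold (log2 change -0.87 ± 0.17, adjusted p = 0.0113). Snord82 shares the host Ncl with Snora75, and measured 7.01, 6.51 and 6.11 in Ikaros-ERt2 cells at 6 h, against 7.37, 7.55 and 7.20 in vector-ERt2 cells (log2 change -0.83 ± 0.20, adjusted p = 0.0344). Its 6 h arrays are spread over 0.90, and the highest of them lies 0.19 below the lowest vector array. Snord52, from the host 1110038B12Rik, measured 6.14, 6.32 and 5.80 in Ikaros-ERt2 cells at 6 h against 6.77, 6.86 and 6.64 in vector-ERt2 cells (log2 change -0.67, adjusted p = 0.0218). Snord49a, from 2410006H16Rik, measured 7.65, 7.69 and 7.21 in Ikaros-ERt2 cells at 6 h against 8.40, 8.12 and 7.97 in vector-ERt2 cells (log2 change -0.65, adjusted p = 0.0372). In none of these 4 did the groups overlap.

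Snord95 and Snord96a share Rack1, the gene of a ribosome-bound scaffold protein, as host. Snord95 measured 7.37, 7.33 and 7.28 in Ikaros-ERt2 cells at 6 h, against 8.07, 7.76 and 8.02 in vector-ERt2 cells (log2 change -0.62, adjusted p = 0.047), and Snord96a had a log2 change of -0.41 (adjusted p = 0.0315). The 19 Snord genes tested but not called all had log2 changes below 0, from -0.66, for Snord53, to -0.09, for Snord8. Snord53, in an intron of Wdr43, measured 6.05, 6.20 and 5.64 in Ikaros-ERt2 cells at 6 h against 6.89, 6.61 and 6.39 in vector-ERt2 cells, which do not overlap, and had an adjusted p of 0.0856. Snord14e, a U14 RNA from the chaperone gene Hspa8, had a log2 change of -0.24 (adjusted p = 0.267), and Snord22, the U22 RNA of Snhg1, one of -0.50 (adjusted p = 0.124). Snord42b, from Rpl23a, varied most over the 9 arrays among Snord genes, by 1.51, and measured 5.97, 5.95 and 5.15 in Ikaros-ERt2 cells at 6 h against 6.31, 6.17 and 6.20 in vector-ERt2 cells (adjusted p = 0.192). Snord49b, among the brightest Snord probe sets, had a log2 change of -0.42 (adjusted p = 0.0983).

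Without a test, the probe sets below the filter had log2 changes at 6 h from -0.70, for Snord37, to -0.03, for the pair of Snord118 probe sets, which hold identical values. Snord37, in the elongation factor gene Eef2, measured 4.16, 4.59 and 4.34 in Ikaros-ERt2 cells at 6 h and at 5.55, 4.94 and 4.70 in vector-ERt2 cells. Snord118, the U8 RNA, has no host gene in the annotation and measured 3.47, 3.58 and 3.65 in Ikaros-ERt2 cells at 6 h, against 3.69, 3.58 and 3.52 in vector-ERt2 cells, so that the groups overlap close to the bottom of the scale. The 2 probe sets of Snord58b gave the same log2 change of -0.47, and those of Snora30 held identical values.

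Counting arrays in place of p-values, 35 of 56 member probe sets had every Ikaros-ERt2 array at 6 h below every vector-ERt2 array, and 0 had every one above. Over single-symbol probe sets the shares were 7.77% and 7.01%. The lower ones were 18 of 23 Snora and 17 of 33 Snord probe sets.

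The size of the difference varied between arrays of 1 group. The median difference of the 56 member probe sets from the vector mean was -0.44, -0.27 and -0.68 in Ikaros-ERt2 replicates 1 to 3 at 6 h, against 0.07, 0.02 and -0.12 in the vector-ERt2 arrays. Replicate 3 at 6 h held the lowest of the 9 values for 33 of 56 probe sets, and replicate 1 at 6 h for 11. Without 6 h replicate 3 the Snord median became -0.28 and 9 members were called, beside 652 genes in all. Without 6 h replicate 1 there were 6 member calls beside 359 genes. Without vector-ERt2 replicate 1, 2 or 3 there were 2, 5 and 10 member calls, beside 335, 423 and 412 genes. With all arrays there were 18 beside 692. The count of members thus depends on single arrays, as does that of all genes, while every one of these fits called members in the lower direction only. When each array was left out in turn, the Snora median stayed between -0.63 and -0.43, and between 35 and 47 member probe sets were lower with no overlap, where the share over single-symbol probe sets in those smaller sets of arrays was 11.5% to 13.9%.

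**Figure D2:**
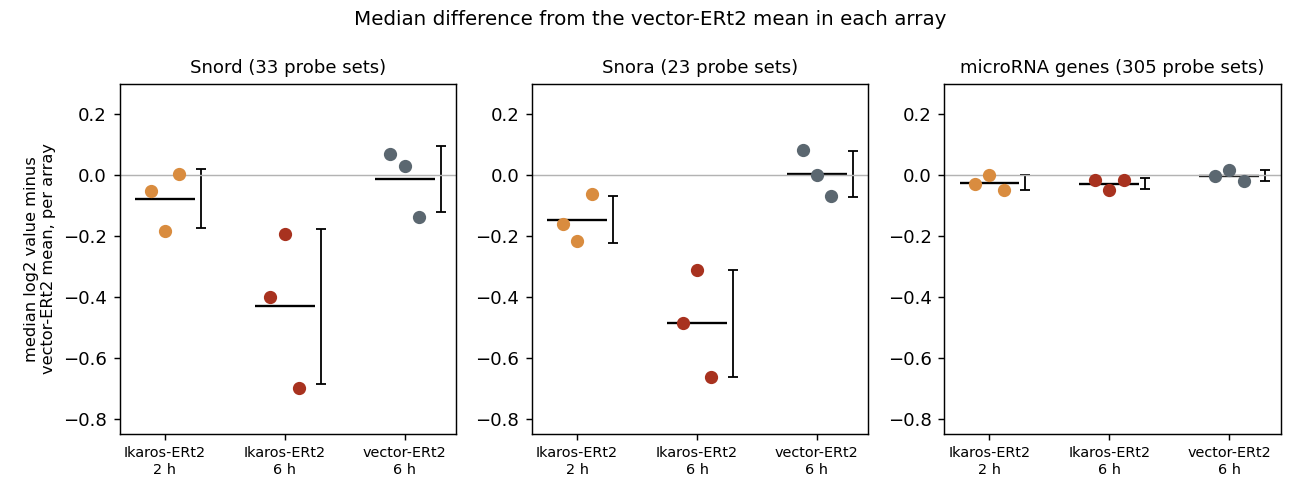
Median over a class of the log2 value minus the vector-ERt2 mean, 1 point an array, for Snord, Snora and, beside them, microRNA genes. Lines are means over 3 arrays and bars to their right are SDs. The Snord and Snora medians of Ikaros-ERt2 cells at 6 h lie below those of vector-ERt2 cells in all 3 arrays, and the microRNA medians lie between -0.05 and 0.02.

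Other small RNA genes were measured on the same arrays. MicroRNA genes, 300 in all, had a median log2 change of -0.03 at 6 h over vector-ERt2 cells. Of these, 1 of 94 tested fell, where 3.2% of all genes tested did. Most of them lay low on the scale, with array medians from 4.13 to 4.26, against 6.34 to 7.14 for the members. Of 3 small Cajal body RNAs, relatives that guide the modification of spliceosomal RNAs, 0 were called by limma (1 at an unadjusted p under 0.05). Scarna13 had a log2 change of -0.31 (adjusted p = 0.0841), Scarna8 one of -0.12 (adjusted p = 0.609) and Scarna17 one of 0.03 (adjusted p = 0.973). Probe sets annotated with a small nucleolar RNA and a second gene were no members. Leaving aside 24 Snord116 probe sets, which lay between 3.42 and 3.72, all 17 of these had a log2 change below 0 at 6 h, with a median of -0.26. Over single-symbol probe sets the share below 0 was 53.6%. The 17 are not separate readings, since the probe sets of Snord1b with Snord1c gave identical results, as did those of Snora19. The probe set shared by Rpl12 and Snora65 had -1.03, and an adjusted p of 0.0314 in a fit of all probe sets.

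After 2 h, 0 of 44 members were called against vector-ERt2 cells at 6 h, where limma called 223 of 11963 genes (1.86%, with 1.1% lower and 0.769% higher). An unadjusted p under 0.05 in limma was reached by 12 members. The share of all genes at that threshold is not given here, so this count has no background beside it. The median log2 change was -0.06 over Snord and -0.11 over Snora probe sets. With each array left out in turn it ran from -0.13 to 0.02 over Snord, the one value above 0 being that without vector-ERt2 replicate 1, and from -0.21 (without 2 h replicate 3) to -0.06 (without 2 h replicate 2) over Snora. Every array lay below every vector array for 14 of 56 probe sets, against 7.19% of single-symbol probe sets. The smallest p-values of their class belonged to Snora75 and Snora52 among Snora and to Snord55 and Snord15b among Snord genes. Snora75 measured 7.55, 7.40 and 7.72 in Ikaros-ERt2 cells at 2 h, all below the vector values of 8.22, 8.04 and 7.87, with a log2 change of -0.49 and an adjusted p of 0.0847. Snord55 measured 7.68, 7.81 and 7.98 in Ikaros-ERt2 cells at 2 h against 8.17, 8.31 and 8.06 in vector-ERt2 cells (log2 change -0.36, adjusted p = 0.116). Both sets of arrays stay apart, by 0.15 for Snora75 and 0.08 for Snord55.

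Replicate 1 at 2 h stood apart for some members. It held the lowest of all 9 values for 8 probe sets, those of Snora30 (both), Snora52, Snord104, Snord15b, Snord55, Snord57 and Snord8. Snora52, in the ribosomal protein gene Rplp2, had the highest mean of any member and measured 7.91, 8.77 and 9.29 in Ikaros-ERt2 cells at 2 h, against 9.52, 9.63 and 9.48 in vector-ERt2 cells (log2 change -0.89 ± 0.26, adjusted p = 0.132). Its 2 h arrays are spread over 1.38, and at 6 h it measured 9.07, 9.44 and 9.08. Without replicate 1 at 2 h its log2 change became -0.52 (adjusted p = 0.268), and without replicate 3 it became -1.21 (adjusted p = 0.0266), the only member call at 2 h in that fit. Snord15b, in Rps3, measured 6.65, 7.41 and 7.28 in Ikaros-ERt2 cells at 2 h against 7.77, 7.80 and 7.55 in vector-ERt2 cells (adjusted p = 0.161). The small Cajal body RNAs also had their lowest array median in replicate 1 at 2 h, -0.62 from the vector mean, and its part in these values was not tested.

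Between the times, Ikaros-ERt2 cells at 6 h were lower than at 2 h for most members. Of 44 genes tested, 3 fell and 0 rose, where 0.527% of all genes tested fell and 0.903% were called. The median log2 change was -0.35 over Snord and -0.37 over Snora probe sets, and 47 of 56 probe sets lay below 0, as did 49.1% of single-symbol probe sets. Every 6 h array lay below every 2 h array for 21 of 56 probe sets, and every one above for 0, where the shares over single-symbol probe sets were 5.19% and 5.47%. Snord52 measured 6.14, 6.32 and 5.80 at 6 h against 7.12, 6.61 and 6.83 at 2 h, 1.7-fold lower (log2 change -0.76 ± 0.15, adjusted p = 0.0408). Snora70, in the ribosomal protein gene Rpl10, measured 7.92, 8.18 and 7.60 at 6 h against 8.60, 8.48 and 8.62 at 2 h (log2 change -0.67 ± 0.12, adjusted p = 0.037). Snora33 measured 6.64, 6.88 and 6.57 at 6 h against 7.22, 7.05 and 7.12 at 2 h (log2 change -0.44 ± 0.09, adjusted p = 0.05 after rounding, just inside the threshold). For these 3, the 2 h arrays lie among or beside the vector arrays and the 6 h arrays below both. The 3 calls depend on single arrays, as does the count of all genes, which was 108 with all arrays. Without 2 h replicate 2 there was 1 member call beside 44 genes, and without 6 h replicate 2 there were 8 beside 149 genes. Without any other single array, vector arrays included, there were 0 member calls, beside 9 to 50 genes. The Snord median became -0.22 without 6 h replicate 3.

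Not every member was called lower or lay below 0 between the times. Snora75 had a log2 change of -0.49 at 2 h over vector-ERt2 cells (not called, adjusted p = 0.0847 in limma) and of -0.32 between the times (adjusted p = 0.285). Snora74a, the U19 RNA of Snhg4, measured 6.60, 6.47 and 6.75 at 6 h and at 6.68, 6.76 and 6.82 at 2 h, with vector-ERt2 cells at 7.17, 7.19 and 6.89 (6 h over 2 h -0.15, adjusted p = 0.572). Snora52 and Snord57 had log2 changes of 0.54 and 0.38 between the times (adjusted p = 0.397 and 0.503).

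**Figure D3:**
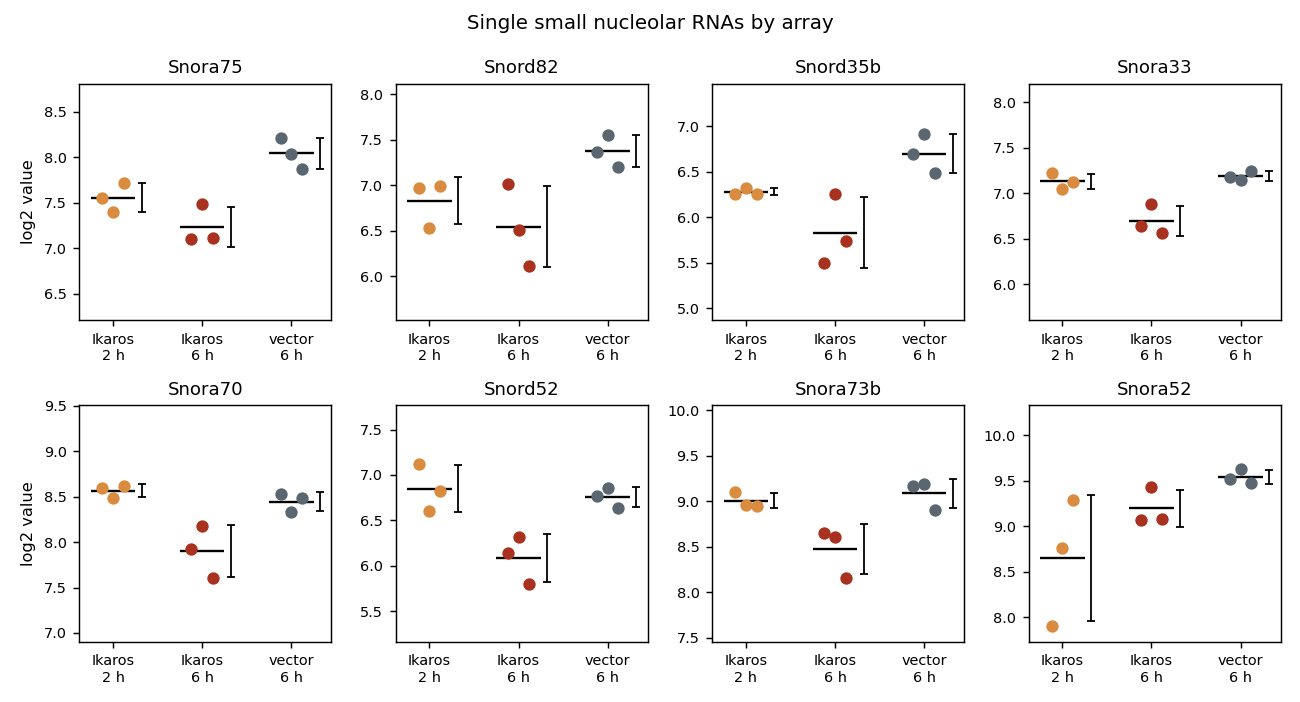
Log2 values of 8 small nucleolar RNAs in each array of the 3 groups, with group means (lines) and SDs (bars). Each panel spans the same range of log2 units, so panels can be compared for differences but not for level. Snora75 lies below the vector arrays at both times, Snord52, Snora70 and Snora33 at 6 h only, and Snora52 is spread over 1.38 at 2 h.

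The contrast of Snord with Snora set their medians beside their calls. At 6 h over vector-ERt2 cells the Snord median log2 change minus the Snora median was 0.03. With each array left out in turn, the difference ran from -0.01 (without 6 h replicate 1) to 0.15 (without 6 h replicate 3), and it was 0.14 without vector-ERt2 replicate 2. It was 0.05 at 2 h and 0.01 between the times. For the class medians of the log2 values themselves, Snord minus Snora had a pooled SD of 0.162 between arrays of a group. That SD is for levels and does not measure the spread of a difference of changes. By array, the Snord and Snora medians from the vector mean were -0.40 and -0.49 in replicate 1 at 6 h, -0.19 and -0.31 in replicate 2, and -0.70 and -0.66 in replicate 3, so that the classes changed order between arrays. The higher share of calls among Snora genes (12 of 19, against 6 of 25) stood beside a smaller median standard error, 0.126 for Snora and 0.161 for Snord, where the median over all genes tested was 0.0895. The difference in the share of calls was not tested.

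**Figure D4:**
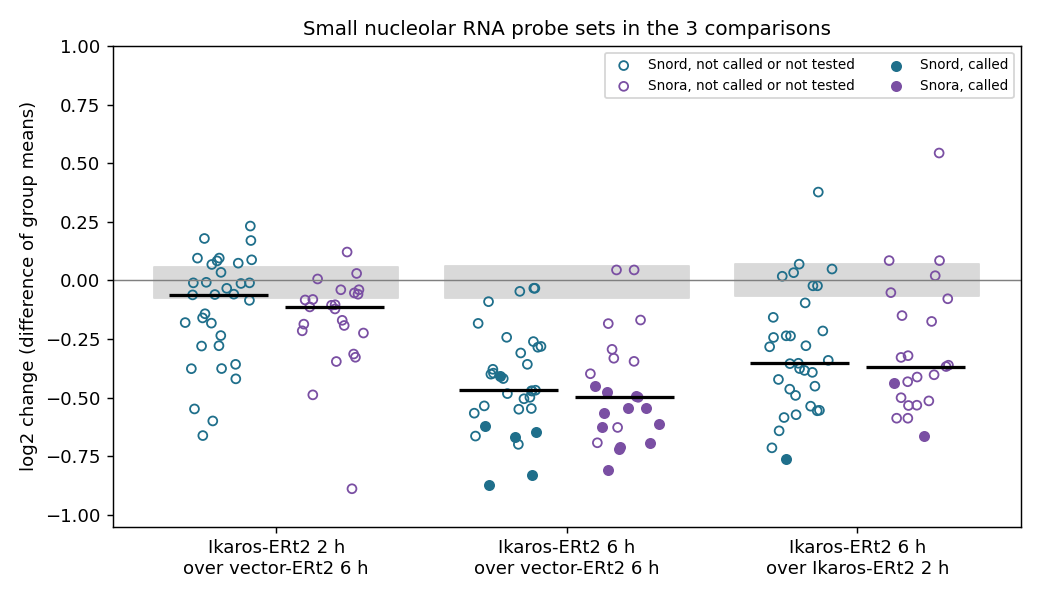
Log2 change of every Snord and Snora probe set in the 3 comparisons. Filled points are called, lines are class medians, and grey bands hold the middle 50% of single-symbol probe sets. At 6 h over vector-ERt2 cells the class medians are -0.47 and -0.50 and all 18 calls lie below 0.

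The proteins that small nucleolar RNAs bind were read from the same arrays. Of all genes tested, 3.2% fell at 6 h against vector-ERt2 cells, and 0.527% fell between the times. Of 4 core box C/D proteins, Nop56 (log2 change -0.40, adjusted p = 0.0127) and Nop58 (-0.44, adjusted p = 0.0227) fell at 6 h against vector-ERt2 cells, while Fbl, the methyltransferase fibrillarin, had -0.25 (adjusted p = 0.305) and Snu13 -0.12 (adjusted p = 0.443). Of 4 core box H/ACA proteins, Dkc1 and Gar1 fell. Dkc1, the pseudouridine synthase dyskerin, measured 9.51, 9.61 and 9.19 in Ikaros-ERt2 cells at 6 h against 10.26, 10.10 and 10.01 in vector-ERt2 cells, 1.61-fold lower (log2 change -0.69 ± 0.11, adjusted p = 0.00526). Gar1 had -0.34 (adjusted p = 0.0421) and Nhp2 -0.38 (adjusted p = 0.0578). At 2 h, 0 of these 8 were called by limma, and 2 had an unadjusted p under 0.05. Between the times Nop58, Dkc1 and Nhp2 fell, and each of these calls was kept in 1 of 9 fits that leave out an array.

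Of 13 assembly and transport factors, 2 fell at 6 h, Nolc1 (log2 change -0.62, adjusted p = 0.00298), a nucleolar and Cajal body phosphoprotein, and Nop14 (-0.37, adjusted p = 0.0342), a factor of the small ribosomal subunit precursor. The list's median was -0.22, and 3.2% of all genes tested fell. Of 8 processing and turnover enzymes, which include the debranching enzyme Dbr1 and the nucleases Xrn1, Xrn2 and Exosc10, 0 were called by limma at 6 h, 1 had an unadjusted p under 0.05 (Dis3, -0.26), and the median was -0.11. Of the calls at 6 h, those of Dkc1 and Nolc1 held when each of the 9 arrays was left out in turn, while Nop56 held in 6, Nop58 in 5, and Gar1 and Nop14 in 2 of these 9 fits.

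Read by their probe sets with the highest mean, host genes moved less than the RNAs in their introns. A list of 65 known host genes had 44 tested, of which 6 fell at 6 h against vector-ERt2 cells and 0 rose, with a median of -0.09. Of all genes tested, 3.2% fell and 2.58% rose. The 6 are named next. These were the particle proteins Dkc1, Nop56 and Nop58, already given, and Ncl (log2 change -0.32, adjusted p = 0.0239), Wdr43 (-0.47, adjusted p = 0.00774) and Snhg15 (-0.47, adjusted p = 0.0179). The calls of Dkc1 and Wdr43 held with each array left out, that of Snhg15 in 5 of 9 such fits and that of Ncl in 4. Pairing by position in RefSeq, without a check of the strand, gave a host with its own single-symbol probe set for 27 member genes in 23 hosts. At 6 h over vector-ERt2 cells the 27 members had a median of -0.49 and the 23 hosts one of -0.06, and the member had the lower log2 change in 25 of 27 pairs, by a median of -0.36. The exceptions were Snord57 in Nop56 (-0.29, host -0.40) and Snora2b in Kansl2 (-0.18, host -0.23).

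In these pairs a host was read from its single-symbol probe set with the highest mean, and the paired hosts have 75 single-symbol probe sets together. Over all 75, the median difference from the vector mean was -0.09, 0.00 and -0.04 in Ikaros-ERt2 replicates 1 to 3 at 6 h. Whether a probe set reads the host at the member's own position was not tested. Single pairs follow as examples. Snora75 and Snord82 had -0.81 and -0.83 where Ncl, their host, measured 11.52, 11.56 and 11.42 in Ikaros-ERt2 cells at 6 h against 11.85, 11.83 and 11.78 in vector-ERt2 cells. Snora3 had -0.72 in Rpl27a (0.04, adjusted p = 0.859), Snora62 -0.55 in Rpsa (0.02, adjusted p = 0.93), Snora70 -0.54 in Rpl10 (-0.03, adjusted p = 0.889) and Snora33 -0.49 in Rps12 (-0.08, adjusted p = 0.658). Rpl27a, Rpsa, Rpl10 and Rps12 are bright, with means from 12.29 to 13.77. Over the 9 arrays the Pearson r of a member with its host ran from -0.58 to 0.88 with a median of 0.46, as a description of arrays that share their groups.

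**Figure D5:**
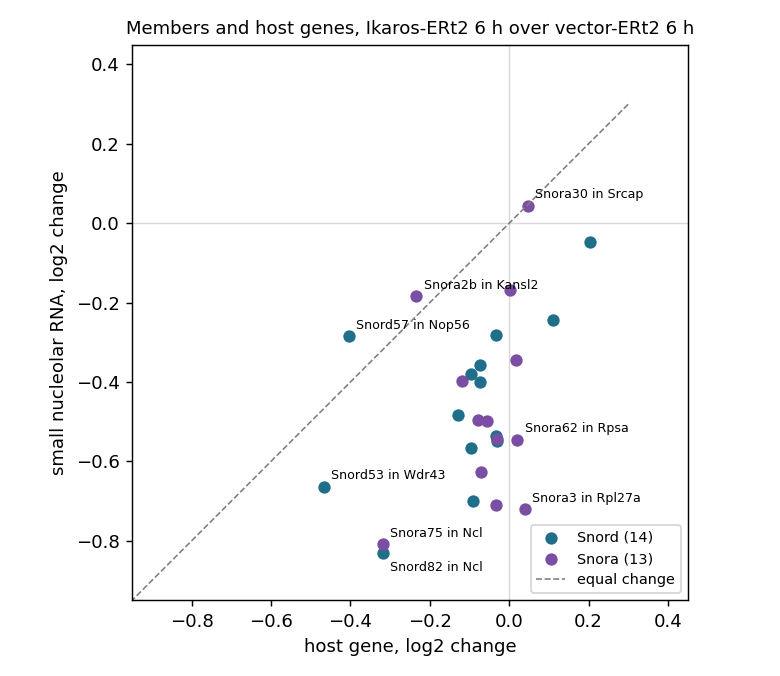
Log2 change at 6 h over vector-ERt2 cells of 27 small nucleolar RNAs (vertical) against that of their host gene (horizontal), with the line of equal change dashed. Of the 27 points, 25 lie below the line, and hosts cluster near 0 while members reach -0.83.

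Many host genes are known to start transcription within a run of pyrimidines, as mRNAs of the translation machinery do. Windows of 230 bases, 200 before and 30 from the annotated start on, were taken from RefSeq (GRCm38.p6) for 30 hosts. A run of at least 5 C or T that holds the base at the annotated start was present in 9 of 30 (30%), against 9.95% of 27025 promoter windows of the same length. A run that lies beside the annotated start was not counted, and where transcription starts in these cells was not measured. CACGTG, which reads the same on both strands, was in 6 of 30 (20%) against 6.14%, and GGGAA, on either strand, in 19 of 30 (63.3%) against 52.7%. The first 2 motifs can share a base at their ends, and GGGAA on the opposite strand (TTCCC) can lie inside a pyrimidine run. Shown here, because they belong to hosts of members called at 6 h and carry the run, are the windows of Rpl27a (host of Snora3), Rack1 (Snord95 and Snord96a), Snhg12 (Snora44) and 2410006H16Rik (Snord49a), 5′ to 3′ on the gene's strand with the run in capitals.
Rpl27a, chr7:109518995-109519224, plus strand: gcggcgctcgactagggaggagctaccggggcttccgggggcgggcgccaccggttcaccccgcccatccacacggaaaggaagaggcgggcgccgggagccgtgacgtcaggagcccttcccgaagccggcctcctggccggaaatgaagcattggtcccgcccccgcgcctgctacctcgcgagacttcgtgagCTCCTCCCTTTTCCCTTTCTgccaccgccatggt
Rack1, chr11:48800160-48800389, plus strand: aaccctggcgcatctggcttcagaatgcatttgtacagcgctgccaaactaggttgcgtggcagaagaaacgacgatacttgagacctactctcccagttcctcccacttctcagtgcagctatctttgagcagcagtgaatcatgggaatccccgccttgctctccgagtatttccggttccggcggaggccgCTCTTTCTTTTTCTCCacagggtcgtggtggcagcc
Snhg12, chr4:132308478-132308707, plus strand: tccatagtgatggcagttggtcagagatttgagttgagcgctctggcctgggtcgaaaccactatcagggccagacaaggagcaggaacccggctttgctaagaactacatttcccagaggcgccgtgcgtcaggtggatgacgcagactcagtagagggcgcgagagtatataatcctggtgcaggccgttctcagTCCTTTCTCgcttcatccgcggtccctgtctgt
2410006H16Rik, chr11:62602677-62602906, plus strand: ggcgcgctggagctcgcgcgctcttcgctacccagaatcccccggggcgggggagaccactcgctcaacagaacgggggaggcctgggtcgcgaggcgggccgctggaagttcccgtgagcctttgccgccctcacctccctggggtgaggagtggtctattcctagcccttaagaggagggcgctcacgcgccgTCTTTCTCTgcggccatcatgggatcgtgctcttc
The runs are 20, 16, 9 and 9 bases long. For Rpl23, host of Snora21, the window (chr11:97782410-97782639, minus strand) holds CACGTG and no run at its start:
Rpl23: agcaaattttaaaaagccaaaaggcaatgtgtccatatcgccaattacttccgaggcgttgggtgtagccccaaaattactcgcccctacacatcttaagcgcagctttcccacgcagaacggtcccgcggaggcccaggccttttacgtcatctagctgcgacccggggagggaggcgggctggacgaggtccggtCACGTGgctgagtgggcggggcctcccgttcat
The capitals mark CACGTG there. Ncl, host of Snora75 and Snord82, has neither. These matches describe the letters of the windows, and members called at 6 h come from hosts with the run at the annotated start and from hosts without it there.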

How the data were processed

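The 9 arrays used, 3 per group, were all Mouse Gene 1.0 ST, and 4 arrays of another type and design were not used here. The deposited values are log2 values that the authors normalized, and per the submitters' processing notes affy, GCRMA, RMA and limma were named, without a version or the step each served. Summaries of this kind can compress high and low signals. RNA was amplified with a whole-transcript kit, per the labels' protocols. Symbols came from the platform annotation, and 21698 of 21789 single-symbol probe sets matched a RefSeq gene by Entrez ID.

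The probe set with the highest mean stood for a gene, and the lowest 40% of genes were left out, which left 11963. Each contrast was fitted over all 9 arrays with limma 3.58.1 (lmFit and eBayes, R 4.3.3), two-sided, with Benjamini-Hochberg adjustment over all genes tested and a threshold of 0.05. The number of arrays limits the precision. The scripts were tested on simulated data. Members and gene lists were chosen with earlier results of these data known. Genes were named where called with the largest changes, or, with no call in a class, by the smallest p, and beside them those with the highest mean, the largest range or several probe sets; Snord53, Snord37, Snord22, Snora74a and the host examples were chosen after their values were seen.

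Replicate numbers were checked for pairing by correlating same-numbered deviations from group means over genes. They gave r = 0.12, 0.13 and 0.23 for Ikaros-ERt2 2 h with vector-ERt2, each above all differently numbered pairs there, which ran from -0.15 to 0.04. The 6 h pairs ranged from -0.10 to 0.11 against vector-ERt2 and from -0.26 to 0.24 against 2 h. Differently numbered pairs ranged from -0.19 to 0.20 and from -0.25 to 0.34 in these 2 comparisons. The main fits treated the arrays as unpaired in every comparison, and pairing entered only through the replicate block, an alternative. The alternatives were the filter, quantile normalization, centring, eBayes with trend, the replicate block, fits of only 2 groups, the mean of a gene's probe sets, and each array left out. Every single-symbol probe set without a filter was added after seeing the data. Host genes were taken from RefSeq positions in GRCm38.p6, without strand, since no build is given in the sources used here.

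Some host genes are not reported here.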

Additional observations from a re-analysis of the deposited data

Results flagged for a closer look

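For 3 members limma called a difference between Ikaros-ERt2 cells at 6 h and at 2 h. It equals the difference of the 2 changes over vector-ERt2 cells, since the same 3 vector arrays enter both and cancel. An effect of Ikaros and one of time in the drug cannot be told apart in it. The difference was -0.76 on the log2 scale for Snord52 (-0.67 at 6 h and 0.10 at 2 h, adjusted p = 0.0408). It was -0.67 for Snora70 (-0.54 at 6 h and 0.12 at 2 h, adjusted p = 0.037). It was -0.44 for Snora33 (-0.49 at 6 h and -0.06 at 2 h, adjusted p = 0.05 after rounding). All 3 were lower in every 6 h array than in any 2 h array. With the replicate block, 4 members were called (Snord52, Snora70, Snora73a and Snora73b).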

How the results depend on the processing

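No member changed direction where it was called, under any alternative. Beside 18 member calls and 692 genes at 6 h over vector-ERt2 cells, there were 11 and 537 without a filter on low genes, 10 and 529 over every single-symbol probe set without a filter, and 7 and 480 with only the 2 groups compared. Beside 3 member calls at 6 h over 2 h (108 genes), members and genes called were 0 and 59 without a filter, 0 and 56 over every single-symbol probe set without a filter, 0 and 61 with arrays centred on their median, and 0 and 0 with only the 2 groups compared. At 2 h over vector-ERt2 cells 223 genes became 141 without a filter, by gene or by probe set. Filters change the number of genes adjusted over, and fits of 2 groups use fewer arrays. Otherwise the cause was not tested.

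Leaving out each array in turn gave 0 to 1 member calls and 82 to 269 genes at 2 h over vector-ERt2 cells, 2 to 19 and 335 to 714 at 6 h, and 0 to 8 and 9 to 149 at 6 h over 2 h. The median log2 change at 6 h over vector-ERt2 cells ran from -0.62 to -0.28 for Snord and from -0.63 to -0.43 for Snora. Member probe sets lower with no overlap at 6 h over 2 h ran from 21 to 34, where the share over single-symbol probe sets ran from 7.71% to 12.1%. With the replicate block there were 0, 17 and 4 member calls in the 3 comparisons, and 263, 673 and 125 genes. Centring moved the median of all probe sets by 0.03, 0.02 and -0.02 in the comparisons of 2 h and 6 h with vector-ERt2 cells and of 6 h with 2 h.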
